A study of Homo sapiens with 3 samples.

Results

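The genes described here are 8 genes of inflammation and of the NF-κB pathway, and the question is where the transcription factors p63 and ZNF148 were found around them. They are IL1A, IL1B, CXCL8, CXCL1, PTGS2, TNFAIP3, NFKBIA and RELA. A peak was counted for a gene when its summit, the position of highest signal, lay within 50 kb of the gene's span in the human genome build hg19. That gave 17 of 21708 p63 summits and 34 of 39462 ZNF148 summits on chromosomes 1 to 22 and X. The summits come from chromatin immunoprecipitation followed by sequencing (ChIP-seq) in untreated FaDu cells, an established line of pharyngeal squamous cell carcinoma. There was 1 library with an antibody to ΔNp63α, the N-terminally truncated form of p63, 1 library with an antibody to ZNF148, and 1 input library without antibody that has no peak list used here. DNA of 3 separate ChIP assays was purified, per the labels' protocols, yet each antibody has 1 list. No value therefore has a replicate error and no p-value is given. Read depth is unknown from the lists.

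NF-κB is a family of dimeric transcription factors that bacterial products, interleukin 1 and tumour necrosis factor switch on. In resting cells IκBα, the product of NFKBIA, holds dimers that contain p65, the product of RELA, in the cytoplasm. Once released, they enter the nucleus and induce cytokines and chemokines, and also NFKBIA and TNFAIP3, whose products restrain the pathway again. Squamous epithelial cells are known to store interleukin 1α and to recruit neutrophils through CXCL8 and CXCL1. p63 is a p53-family factor of the basal layer of such epithelia, and ZNF148 belongs to the zinc finger factors whose known sites are rich in G and C.

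The summits of the 2 proteins were distributed differently over these genes. p63 summits outnumbered those of ZNF148 around IL1A, IL1B and CXCL8, equalled them around CXCL1 and PTGS2, and were fewer around TNFAIP3, NFKBIA and RELA. At 3 of the genes this order depended on the limits. With 100 kb in place of 50 kb, TNFAIP3 and PTGS2 each had 4 p63 and 2 ZNF148 summits. Counts were not scaled for list length, 39462 ZNF148 against 21708 p63 summits. With the ZNF148 list shortened to the length of the p63 list, TNFAIP3 had 1 summit of each protein, and CXCL1 had 1 p63 and 0 ZNF148 summits. RELA then kept 8 and NFKBIA 4 ZNF148 summits, against 2 and 0 of p63. The genes were also grouped by role, a split that was not planned and leaves out PTGS2. It places RELA, which encodes an NF-κB subunit, beside the 2 inhibitor genes. The groups hold the same summits as the counts above, so they add no support to that order. The 4 genes of secreted signals (IL1A, IL1B, CXCL8 and CXCL1) had 12 p63 and 5 ZNF148 summits in 368 kb of sequence. Of these, 8 p63 and 4 ZNF148 summits lay around IL1A and IL1B, leaving 4 and 1 around CXCL8 and CXCL1. The 2 inhibitor genes and RELA had 3 p63 and 27 ZNF148 summits in 329 kb. RELA alone had 19 of the 34 ZNF148 summits, and without it the 2 inhibitor genes had 1 p63 and 8 ZNF148 summits. Of the 19, 15 lay beyond the end of RELA, and to which gene they belong was not determined. A summit of p63 lay near 7 of the 8 genes and one of ZNF148 near 7, with 6 genes having both. For scale, 44.9% of all 100 kb windows of the genome held a p63 summit, 51.8% a ZNF148 summit and 32.9% one of each. The gene windows were 102 to 117 kb long and centred on genes, so the tiled windows are not a matched background. ChIP-seq peaks near a gene do not show that the gene is regulated by the protein, and no expression was measured.

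**Figure D1:**
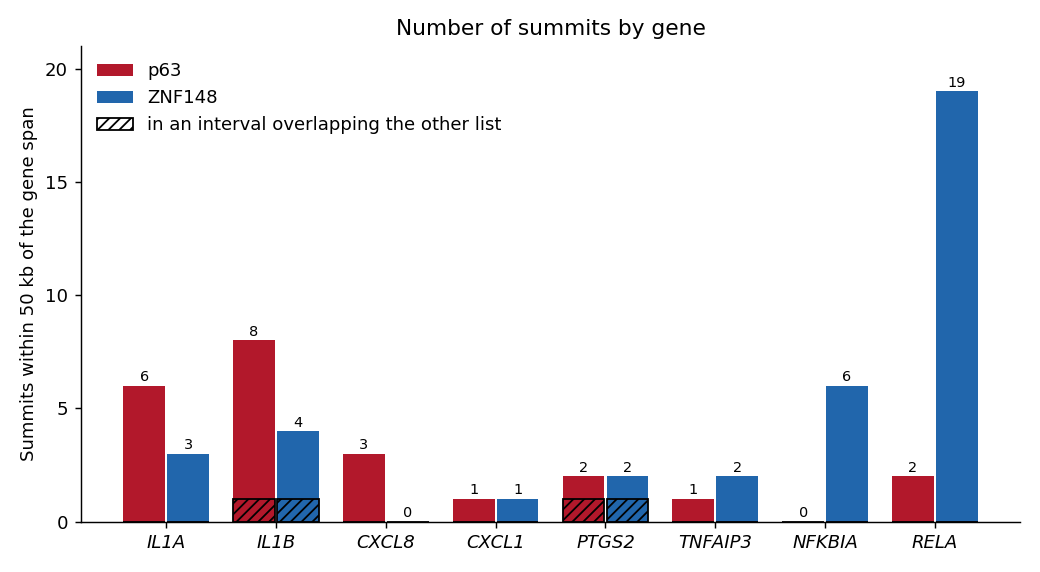
Number of p63 (red) and ZNF148 (blue) summits within 50 kb of each gene span, with the hatched part lying in an interval that overlaps a peak of the other protein. IL1B had the most p63 summits, 8, and RELA the most ZNF148 summits, 19; the 6 p63 and 3 ZNF148 summits of IL1A are also counted for IL1B.

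Relative to the start of the gene, the summits also differed. The rule gives each span to 1 kb, so the start is known only to about 1 kb, and for summits that close the side cannot be told. No p63 summit lay within 2 kb of any of the 8 starts. The nearest was 3 kb upstream of CXCL1, and the nearest p63 summit of a gene was at a median of 16.5 kb. ZNF148 had a summit within 1 kb of the start of CXCL1, PTGS2, TNFAIP3 and NFKBIA, and within 2 kb of RELA as well. These were 10 summits at 5 genes. IL1A, IL1B and CXCL8 had none that close, and their nearest ZNF148 summits were 24, 12 and 129 kb from the start. Folds of the nearest summit ran from 5.77 at CXCL1 and 6.90 at TNFAIP3 to 19.8 at both PTGS2 and RELA. Fold means enrichment over local background at the summit, as the authors' peak caller gave it. Both lowest values lie below the lower quartile of the ZNF148 list, 7.21. With −log10 q values of 5.45 and 7.52, the summits at CXCL1 and TNFAIP3 are lost when a −log10 q of 10 or more is required. For want of an hg19 annotation, the share of all genes with a summit this close to the start was not computed for either protein. Whether the contrast between the proteins is particular to these 8 genes was therefore not tested.

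The bases before the start of the 4 genes with a ZNF148 summit within 1 kb are shown because they hold the elements through which NF-κB is known to act. They are the 250 bases upstream of the start in RefSeq, build GRCh38.p14, on the strand of the gene: chr4:73869143-73869392 (plus) for CXCL1, chr1:186680424-186680673 (minus) for PTGS2, chr6:137867009-137867258 (plus) for TNFAIP3 and chr14:35404750-35404999 (minus) for NFKBIA. Capitals mark matches, on either strand, to a loose NF-κB pattern, GGG followed by any 5 bases and CC. The peaks are in hg19 and were not converted, so whether a peak covers a given base was not determined.
CXCL1: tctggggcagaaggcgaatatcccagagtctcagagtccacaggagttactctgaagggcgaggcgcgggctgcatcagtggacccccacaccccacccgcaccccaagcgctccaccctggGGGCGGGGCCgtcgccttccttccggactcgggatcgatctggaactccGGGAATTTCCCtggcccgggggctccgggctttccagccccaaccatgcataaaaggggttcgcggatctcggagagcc
PTGS2: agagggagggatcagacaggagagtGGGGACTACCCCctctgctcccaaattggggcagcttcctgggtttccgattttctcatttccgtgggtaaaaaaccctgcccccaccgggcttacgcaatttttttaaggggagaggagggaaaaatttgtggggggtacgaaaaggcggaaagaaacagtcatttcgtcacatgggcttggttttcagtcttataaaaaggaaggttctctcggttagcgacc
TNFAIP3: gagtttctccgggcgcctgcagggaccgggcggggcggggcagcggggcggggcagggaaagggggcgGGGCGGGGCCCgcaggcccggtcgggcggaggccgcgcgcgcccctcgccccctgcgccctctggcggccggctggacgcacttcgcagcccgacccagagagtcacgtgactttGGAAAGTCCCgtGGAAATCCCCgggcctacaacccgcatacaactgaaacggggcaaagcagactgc
NFKBIA: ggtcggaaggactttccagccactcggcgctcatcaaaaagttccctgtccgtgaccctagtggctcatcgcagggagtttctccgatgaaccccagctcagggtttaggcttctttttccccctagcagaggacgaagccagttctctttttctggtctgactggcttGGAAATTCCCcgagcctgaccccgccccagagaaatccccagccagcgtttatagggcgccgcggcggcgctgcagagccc

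The NF-κB pattern had 3 matches in the CXCL1 sequence, 3 in PTGS2, 4 in TNFAIP3 and 1 in NFKBIA, where matches that overlap each other are counted singly. In CXCL1 1 of the 3, and in TNFAIP3 2 of the 4, overlapped a GC box. The pattern is common: 54.4% of 35097 promoter sequences of the same length hold it. The GC box GGGCGG, on either strand, was found 6 times in TNFAIP3, once in CXCL1, once in NFKBIA and not in PTGS2, and 42.6% of all promoters hold it. The letters CCCTCCCC, resembling the known ZNF148 motif, were in none of the 4 but in IL1B (12.7% of all promoters). The p53-family pattern, a pair of CNNG separated by any 6 bases, occurred in all 4, as in 68.6% of promoters. CXCL8 and IL1B have 1 promoter in the table, and IL1A has 2. CXCL8 held 1 match to the NF-κB pattern, while IL1A and IL1B held none. RELA, with 2 promoters in the table, held 1 match in one of them. The AP-1 letters TGANTCA were in the CXCL8 promoter and in both of IL1A, but in none of the 4 shown (6.57% of all). The TATA box letters TATAAA were in the promoters of PTGS2, NFKBIA and CXCL8 and in one of IL1A (10.7% of all). The G and C content was 65.6% for CXCL1, 50.4% for PTGS2, 74.0% for TNFAIP3 and 59.2% for NFKBIA. It was 37.6% for CXCL8, 40.0% for IL1B, and 37.6 and 42.0% for the promoters of IL1A, against a median of 58.0% over all promoters. The promoters of RELA had 48.4 and 79.2%. Such matches describe these letters and do not show binding.

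**Figure D2:**
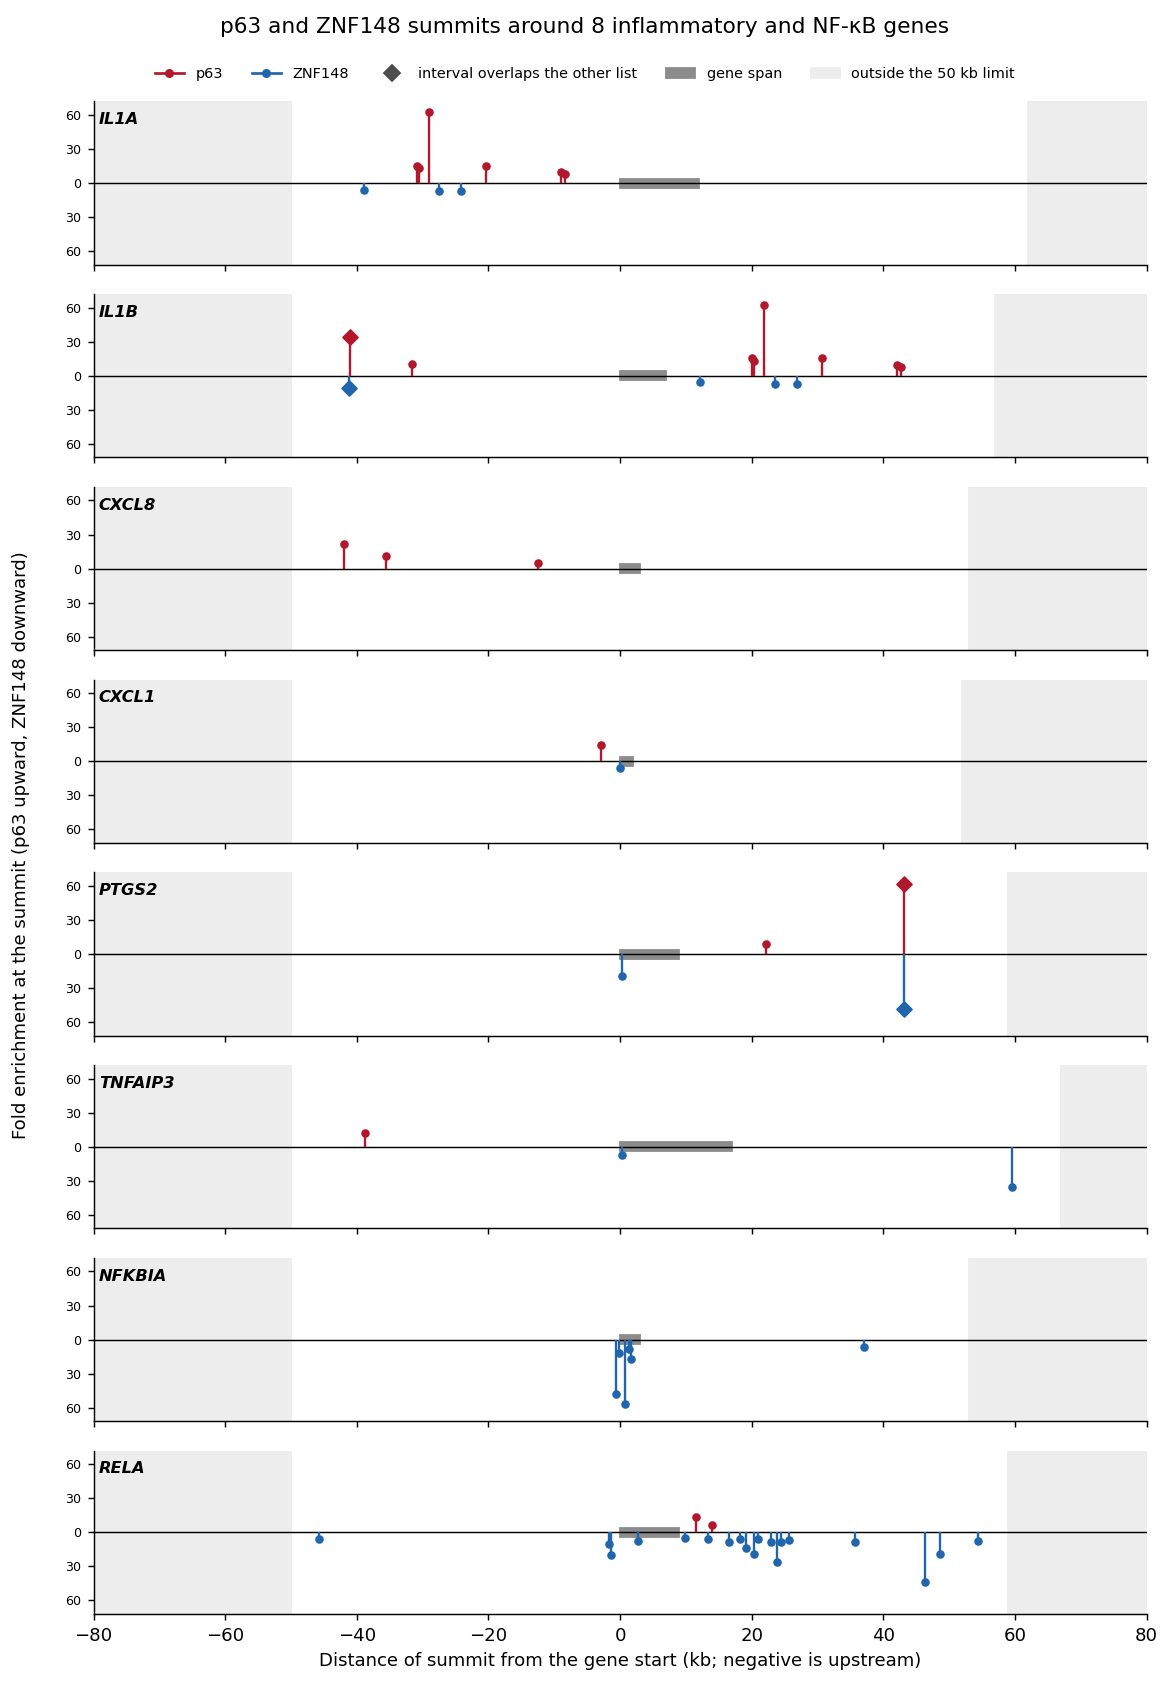
Position and fold enrichment of every summit around each gene, in kb from the gene start with negative values upstream; p63 points upward in red and ZNF148 downward in blue, and diamonds mark intervals that overlap the other protein's list. The p63 summits stand away from the gene starts, the nearest 3 kb upstream of CXCL1, while ZNF148 summits sit at the starts of CXCL1, PTGS2, TNFAIP3 and NFKBIA and close to that of RELA; overlapping pairs are seen only near IL1B and PTGS2.

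IL1A and IL1B encode interleukins 1α and 1β, the cytokines that start an inflammatory response through a common receptor. They lie next to each other on chromosome 2, both on the minus strand, with 44 kb between their spans, so their windows overlap and 6 p63 and 3 ZNF148 summits belong to both. Together they held 8 p63 and 4 ZNF148 summits in 163 kb. The strongest p63 summit of all 8 genes lay between them, at chr2:113571889-113572299, 29 kb upstream of IL1A and 22 kb downstream of the IL1B start. Its fold enrichment was 62.8 and its rank by q value 614 of 21708. The nearest ZNF148 summit, 1605 bp away, had a fold of 7.36.

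The p63 peaks between the spans formed a row. Next to the strongest lay an interval with 2 summits of fold 13.5 and 15.4 (chr2:113573507-113574024). Toward IL1A followed summits of fold 15.3 (chr2:113563257-113563511), 9.64 (chr2:113551822-113552001) and 8.06 (chr2:113551248-113551425), the last 8 kb from the IL1A start. ZNF148 had 3 summits in the same stretch, with folds of 5.75, 7.03 and 7.36. None of them overlapped a p63 peak, and 11.9% of all ZNF148 summits did. All 3 lie below the ZNF148 list's median of 10.0, while 4 of the 6 p63 summits there were above the p63 median of 13.2.

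Upstream of IL1B lay the other 2 p63 summits, 32 and 41 kb from its start. The nearer had a fold of 10.4. The farther, at chr2:113634864-113635403, had a fold of 33.96 and overlapped a ZNF148 peak of fold 10.6 (chr2:113635085-113635281). The ZNF148 peak lay wholly within the p63 interval, and the summits were 138 bp apart. Of the 100 kb windows of the genome, 0.136% held as many p63 summits as the IL1B window, 8, or more, and 0.489% held as many as the 6 of IL1A. The corresponding shares for ZNF148 were 9.98% for IL1B and 15.8% for IL1A. Since the windows overlap, these are not separate observations.

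CXCL8 and CXCL1 encode chemokines that attract neutrophils through CXCR2, CXCL8 also through CXCR1. Both lie on the plus strand of chromosome 4, with 126 kb between their spans. Around CXCL8 there were 3 p63 summits, all upstream, and no ZNF148 summit. The p63 folds were 21.6 at 42 kb (chr4:74563948-74564206), 10.6 at 36 kb (chr4:74570292-74570522) and 5.30 at 13 kb (chr4:74593384-74593534). The last was the weakest p63 summit of all 8 genes, with a −log10 q of 5.16. The ZNF148 summit nearest to the CXCL8 start was the one at CXCL1. Around CXCL1 each protein had 1 summit. The p63 summit, 3 kb upstream at chr4:74731983-74732274, had a fold of 14.8. The ZNF148 summit at the start, chr4:74734888-74735037, had a fold of 5.77 and a −log10 q of 5.45, and lay 2825 bp from the p63 summit. Both CXCL1 peaks were thus separate intervals.

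PTGS2 encodes cyclooxygenase 2, the inducible enzyme of prostaglandin synthesis, and lies on the minus strand of chromosome 1. It had 2 summits of each protein. At the gene start, ZNF148 alone had a peak, chr1:186649547-186649836, with a fold of 19.8, at percentile 80.3 of its list. Downstream, 34 kb beyond the span, lay the closest pair of all 8 genes. The p63 peak chr1:186606732-186607080 had a fold of 61.9 and the ZNF148 peak chr1:186606743-186607099 a fold of 48.0. Their summits were 19 bp apart and the intervals had 338 bp in common. The p63 summit ranked 706 of 21708 and the ZNF148 summit 1435 of 39462. A weaker p63 summit of fold 8.72 lay 13 kb beyond the span (chr1:186627723-186627895), with no ZNF148 summit within 20.9 kb.

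TNFAIP3 encodes A20, a ubiquitin-editing enzyme that shuts off signalling to NF-κB, and lies on the plus strand of chromosome 6. It had 1 p63 summit, 39 kb upstream (chr6:138149112-138149328), with a fold of 11.8. ZNF148 had 2 summits. The one at the start was weak, with a fold of 6.90 (chr6:138188185-138188342), and the one 43 kb beyond the span was strong, with a fold of 35.4 (chr6:138247219-138247630). No p63 summit lay within 52.3 kb of that peak. Just past the limit, 53 kb upstream of the span, stood a stronger p63 summit, with a fold of 26.1 and a −log10 q of 164 (chr6:138134514-138134832).

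NFKBIA, on the minus strand of chromosome 14, was the gene without a p63 summit. The nearest p63 summit was 65 kb beyond the span, outside the limit, with a fold of 14.1. ZNF148 had 6 summits, 5 of them within 2 kb of the start. The strongest, at chr14:35873009-35873587, had a fold of 56.9 and ranked 512 of 39462. It was the strongest ZNF148 summit of all 8 genes. A wide interval of 858 bp across the other side of the start (chr14:35874035-35874892) held 2 summits, of fold 12.0 and 48.0. Further into the gene lay summits of fold 17.4 (chr14:35872186-35872478) and 8.75 (chr14:35872531-35872759). The remaining summit, 34 kb beyond the span, had a fold of 6.49. Of the 100 kb windows, 5.01% held 6 or more ZNF148 summits.

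RELA, on the minus strand of chromosome 11, had the most ZNF148 summits, 19, against 2 of p63. Only 0.221% of 100 kb windows held 19 or more ZNF148 summits, and 17.3% held 2 or more p63 summits. Of the 19, 15 lay beyond the end of the gene, 1 in it and 3 upstream. The interval nearest the start, chr11:65431176-65431749, held 2 summits of fold 19.8 and 10.6. Past the end of the gene, 11 summits were spread over 15.9 kb, 1 to 17 kb from the span, with a median spacing of 1.24 kb. Their folds ran from 5.35 to 26.2 with a median of 8.13. The strongest was 44.3, farther out at chr11:65383406-65383822, 37 kb from the span. The other 3 summits farther out had folds of 19.0, 8.96 and 7.46, and the one inside the gene had a fold of 7.34. In the RefSeq table SIPA1, PCNX3 and MAP3K11 are the next protein-coding genes on that side. To which of these genes the summits belong was not determined, because hg19 positions of the neighbouring genes were not available.

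The 2 p63 summits of RELA lay among those of ZNF148 without overlap. They had folds of 13.8, 3 kb beyond the span (chr11:65418316-65418606), and 6.63, 5 kb beyond it (chr11:65416003-65416198). The nearest ZNF148 summits were 1759 and 559 bp away, with folds of 5.35 and 5.85. Dense ZNF148 peaks stood beside p63 peaks here without forming a pair. Most summits of either protein were unpaired, since 21.4% of all p63 and 11.9% of all ZNF148 summits lay in overlapping intervals.

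Over the 8 genes, 2 of 17 p63 summits were in an interval overlapping a ZNF148 peak, or 11.8% (95% Wilson interval 3.29 to 34.3%), against 21.4% of all p63 summits. Among the ZNF148 summits it was 2 of 34, or 5.88% (1.63 to 19.1%), against 11.9% of all. RELA holds 19 of the 34 and no pair. Without RELA, a choice made after seeing the data, the share was 2 of 15, or 13.3% (3.74 to 37.9%). That is close to the 11.9% of the whole list. Summits within 25 bp of the other protein were 1 of 17 for p63, against 13.5% of all, and 1 of 34 for ZNF148, against 7.41% of all. The intervals contain the values of the whole lists, so a difference in sharing was not detectable with so few summits. These intervals cover counting error and treat summits as independent. In terms of genes, 2 of 8 had an overlapping pair, and 13.7% of 100 kb windows held one.

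The summits near the genes spanned most of the range of strength in each list. The p63 folds ran from 5.30 to 62.8 with a median of 13.5 (quartiles 9.64 and 15.4), and the median of all other p63 summits was 13.2 (8.39 and 24.3). A fold of at least 10 was reached by 12 of the 17, and by 64.9% of all p63 summits. The ZNF148 folds ran from 5.35 to 56.9 with a median of 8.64 (6.70 and 19.1), against 10.0 (7.21 and 16.6) for all other ZNF148 summits. For ZNF148 it was reached by 15 of the 34, and by 50.1% of the whole list. Both whole-list medians lie between the quartiles of the summits near the genes.

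**Figure D3:**
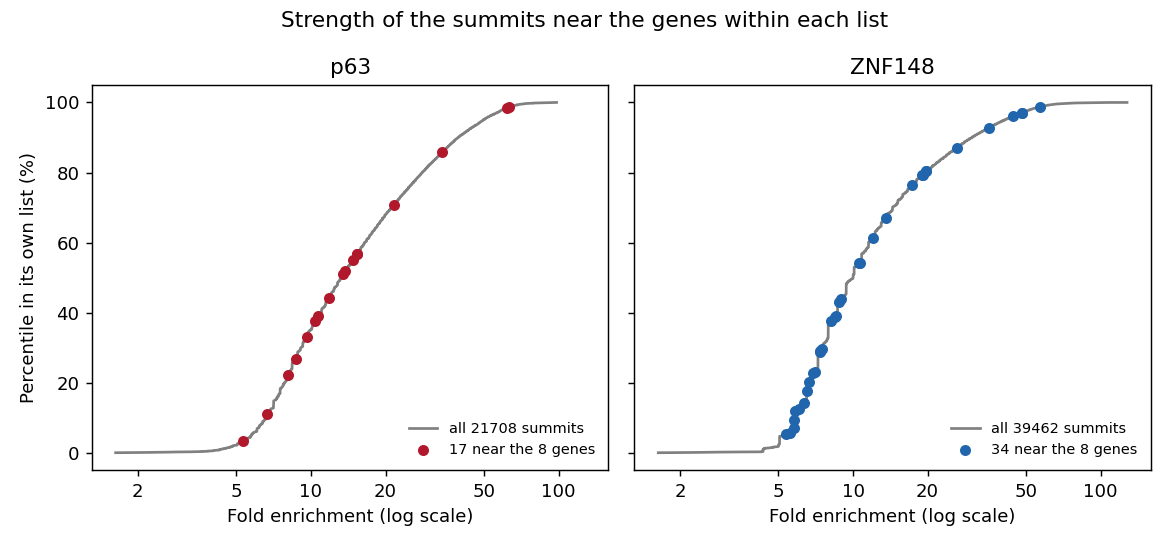
Fold enrichment on a log scale against percentile within each list for p63 (left) and ZNF148 (right); grey lines show all summits and points those near the 8 genes. The p63 points run from 5.30 to 62.8, the ZNF148 points lie between 5.35 and 56.9, and both sets cover most of their curve.

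Per length of sequence, the windows were denser in both proteins than the whole list. They held 21.1 p63 summits per Mb, against 7.36 over all chromosomes, and 42.2 ZNF148 summits per Mb, against 13.4. A single locus weighed on each value. Without the IL1A and IL1B windows the p63 density was 14 per Mb, and without RELA the ZNF148 density was 21.5. Windows around genes were set here against whole chromosomes, gene-poor stretches included, so the part that gene density plays in these ratios was not tested.

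The 50 kb limit matters for some of the genes. Between 50 and 100 kb lay 12 further p63 summits, of which 4 overlapped a ZNF148 peak. One was the p63 summit 65 kb from NFKBIA (chr14:35805950-35806335), where the ZNF148 fold was 39.2 and the summits were 36 bp apart. The other 3 lay 61, 73 and 81 kb from RELA, with p63 folds of 22.1, 17.6 and 4.90 beside ZNF148 folds of 23.7, 25.9 and 62.0. Strong p63 summits without ZNF148 stood 81 kb from IL1A, with a fold of 55.9 (chr2:113450183-113450480), and 66 kb from CXCL8, with a fold of 47.2 (chr4:74540203-74540655). TNFAIP3 gained 3 p63 summits, 53 and 59 kb upstream and 95 kb downstream of the span, with folds of 26.1, 5.37 and 19.8 and no overlapping ZNF148 peak. Within 100 kb of the 8 genes, 6 of 29 p63 summits, or 20.7%, and 6 of 52 ZNF148 summits, or 11.5%, were shared, against 21.4% and 11.9% of the whole lists.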

How the data were processed

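The analysis started from 1 peak list per antibody. Per the submitters' processing notes, the tools were MACS2 2.2.6, Bowtie2 2.3.4.3, SAMtools 1.7, MultiQC 1.12 and FastQC 0.11.9 and the build hg19. Settings, control library and duplicate removal are not given in the sources used here. Fold enrichment (a ratio over local background), the −log10 p and −log10 q values, the summit offset and the score of each peak are as deposited by the authors; scores entered no result. The lowest −log10 q, rounded, was 3.01 in the p63 list and 3.02 in the ZNF148 list, and sites weaker than that cannot be seen.

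Rows on chromosomes 1 to 22 and X were kept, leaving out 214 p63 and 207 ZNF148 rows. Each row is 1 summit, and intervals with several summits count once per summit. The gene spans were given in hg19 to 1 kb. Strand, gene order and promoter sequences came from RefSeq GRCh38.p14, in which 8 of 8 symbols matched; no coordinates were converted. Overlap required 1 bp. Tiled windows of 100 kb ran from the first to the last summit of a chromosome. At each of the 8 genes, the strongest summit, the nearest to the start, those in or beside the gene and every pair are named. Members and lists were chosen with earlier results of these data known. Other NF-κB pathway genes were not located, for want of an hg19 annotation. Alternatives were other window sizes, thresholds, overlap rules and list lengths. The overlap code was tested on simulated data. Calculations used Python 3.11.15, numpy 2.4.6, pandas 2.3.3, scipy 1.17.1 and matplotlib 3.10.9.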

Additional observations from a re-analysis of the deposited data

How the results depend on the processing

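No paired analysis was possible because each antibody has 1 list and no replicates. Of 87 recomputed values over all genes, 68 stayed within the counting interval (counts within 1.5 times) and 19 moved. For the shares these intervals are wide, 3.29 to 34.3% for p63 and 1.63 to 19.1% for ZNF148. A rise of the p63 share from 11.8 to 20.7% thus did not count as moved, and the tally says little about how stable the shares are. Requiring a −log10 q of 5 or more could move none of the values over all genes, nor any count at a single gene. The lowest −log10 q near the genes was 5.16 for p63 and 5.13 for ZNF148. With 25 kb in place of 50 kb, p63 summits numbered 11, and both shares and the number of genes with an overlapping pair fell to 0. With 100 kb they numbered 29 for p63 and 52 for ZNF148, the shares were 20.7% (6 of 29) and 11.5% (6 of 52), and 5 genes had a pair, IL1A and IL1B by the same one. The number of ZNF148 summits was 20 at a −log10 q of 10 or more, 15 at a fold of 10 or more and 16 with lists of equal length. Their median fold was 18.2, 19.8 and 19.5, against 13.7, 16.6 and 15.6 for the whole ZNF148 list under the same limits. The order thus turned, since without these limits the median near the genes was the lower one, 8.64 against 10.0. Only 1 gene had a pair with summits within 100 bp, within 25 bp, or overlap of 50% of both intervals. Chosen after seeing the data, leaving out the IL1A and IL1B region gave 9 p63 summits and 1 gene with a pair, and leaving out RELA gave 15 ZNF148 summits, of which 13.3% were shared. Of 104 recomputed counts at single genes, 31 moved; 9 were higher and 39 lower than reported. At a −log10 q of 10 or more, or a fold of 10 or more, no ZNF148 summit was left at CXCL1 or IL1A and 1 at TNFAIP3. Read depth is unknown and limits both lists to an unknown degree.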

Other observations

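The p63 summit 3 kb beyond the RELA span had an unusual q value for its fold. Its fold was 13.8 and its −log10 q 83.9, whereas the median −log10 q of the 2075 p63 summits with a fold within 10% of it was 32.3. Of these, 12, or 0.578% (itself included), had a −log10 q as high. It was picked out after the values had been seen. Of the other 16 p63 summits near the genes, the lowest such share was 21.7%, for the second p63 summit of RELA. The ZNF148 summits of RELA included several with high q values for their fold. The share was 1.23% for the one 46 kb upstream (fold 6.08). It was 2.08% for the one nearest the end of the gene (fold 5.35) and 2.75% for one of fold 8.52. These are the lowest shares among the 19 of RELA, also picked out after the values had been seen, and the highest was 69.4%. Among the ZNF148 summits of the other genes the lowest share was 28.5%, at the PTGS2 start. Copy number, local background and read depth were not measured, and their part in these values was not tested.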
